A study of Mus musculus with 14 samples.

Results

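Fatty acid elongases lengthen acyl chains in the endoplasmic reticulum, and desaturases put double bonds into them. Described here are 10 genes of these families, 5 elongases (Elovl1, Elovl2, Elovl3, Elovl5 and Elovl7) and 5 desaturases or desaturase-domain genes (Fads1, Fads2, Fads3, Fads6 and Scd2), taken by symbol out of 54446 genes measured in mouse liver. The knockouts were 8 C57BL/6 liver samples labelled Mettl3 floxed with Alb-Cre, and the controls were 6 labelled Mettl3 floxed without Alb-Cre, all from 5-week-old mice. The floxed allele is thus shared by both groups, and the comparison asks how liver RNA differs once Alb-Cre is added. Alb-Cre is driven by the albumin promoter, which is active in hepatocytes and their precursors, so cells outside that lineage are not targeted. Mettl3 encodes the catalytic subunit of the enzyme that writes the m6A mark on mRNA. The labels gave no sex and no time of day. They numbered the samples without saying that each came from its own mouse or from pooled mice, so p values measure the spread between these samples, which may in part be technical.

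Total RNA of whole liver was sequenced, and a gene's value here is its estimated read count after the authors' scaling of libraries. Depth, in estimated reads, was 11.1 to 30.9 M in knockouts and 13.7 to 33.8 M in controls. Mettl3 itself ran from 76.9 to 122 in knockouts and from 199 to 263 in controls, a difference of -1.17 on the log2 scale (SE 0.12, adjusted p = 1.32e-05 in limma). Sex-linked transcripts divided the libraries into 8 with Y-linked RNA (Y-positive, replicates 1 to 4 of both groups) and 6 with high Xist (Xist-high, knockouts 5 to 8 and controls 5 and 6). This division ran with depth, at 11.1 to 19.3 M estimated reads in Xist-high and 24.3 to 33.8 M in Y-positive libraries, so class and depth cannot be told apart. Knockouts 3, 6 and 7 stood apart from the rest, with scores on the first principal component of 61.5, 99.7 and 96.3. The remaining 5 knockouts scored -10.7 to 27.6 and the controls -70.3 to -25.8. Knockouts 3, 6 and 7 were thus picked out from these same data and lay farthest from controls on that component. Fits without them keep 5 knockouts and are not an independent check of any change. All 8 hepatocyte markers were present in every library. Their summed value was 548300 to 897056 in knockouts and 921062 to 1051900 in controls. At a limma adjusted p of at most 0.05, 4 of the 8 fell, against 11% of all genes tested. In whole tissue, fewer cells of a type and less RNA per cell cannot be told apart.

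The elongases and desaturases divide into branches. Fads2, Elovl5, Fads1 and Elovl2 act in turn on the essential polyunsaturated fatty acids and lead to arachidonic and docosahexaenoic acid, and the liver is a main site of this route. Elovl1, Elovl3 and Elovl7 lengthen saturated and monounsaturated chains, and stearoyl-CoA desaturases such as Scd2 make monounsaturated ones. Genes of the polyunsaturated route are known targets of the lipogenic factor SREBP-1c and of the nuclear receptors LXR and PPAR alpha.

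Of the 10 genes, all passed the filter on low values, 4 fell (Fads2, Fads1, Elovl2 and Fads6), 1 rose (Elovl1) and 5 did not pass the test. Over all 23554 genes tested, 22.4% were called, 11.5% as higher and 11% as lower, at a limma adjusted p of at most 0.05. The median log2 change of the 10 genes was -0.42, against 0.05 over all genes tested. The groups did not overlap for Fads2 and Elovl1, a pattern shown by 8.16% of the genes tested. The log2 changes below are on the scale log2(value + 1), knockout minus control. The deposited scaling matters for them: when libraries were scaled to the same sum without ribosomal RNA (equal sums), the median change over all genes moved up by 0.33, 36.9% of genes were called, 33.3% as higher and 3.68% as lower. Under that scaling each of the 10 genes kept its direction, 3 rose (Elovl1, Elovl7 and Scd2) and 1 fell (Fads2, -0.82). Without knockouts 3, 6 and 7, where 9.19% of genes were called higher and 9.24% lower, 1 member rose and 3 fell. The authors' deposited table, with q values for 27865 genes of which 17.1% had a q of at most 0.05, called the same 5 members as limma did.

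**Figure D1:**
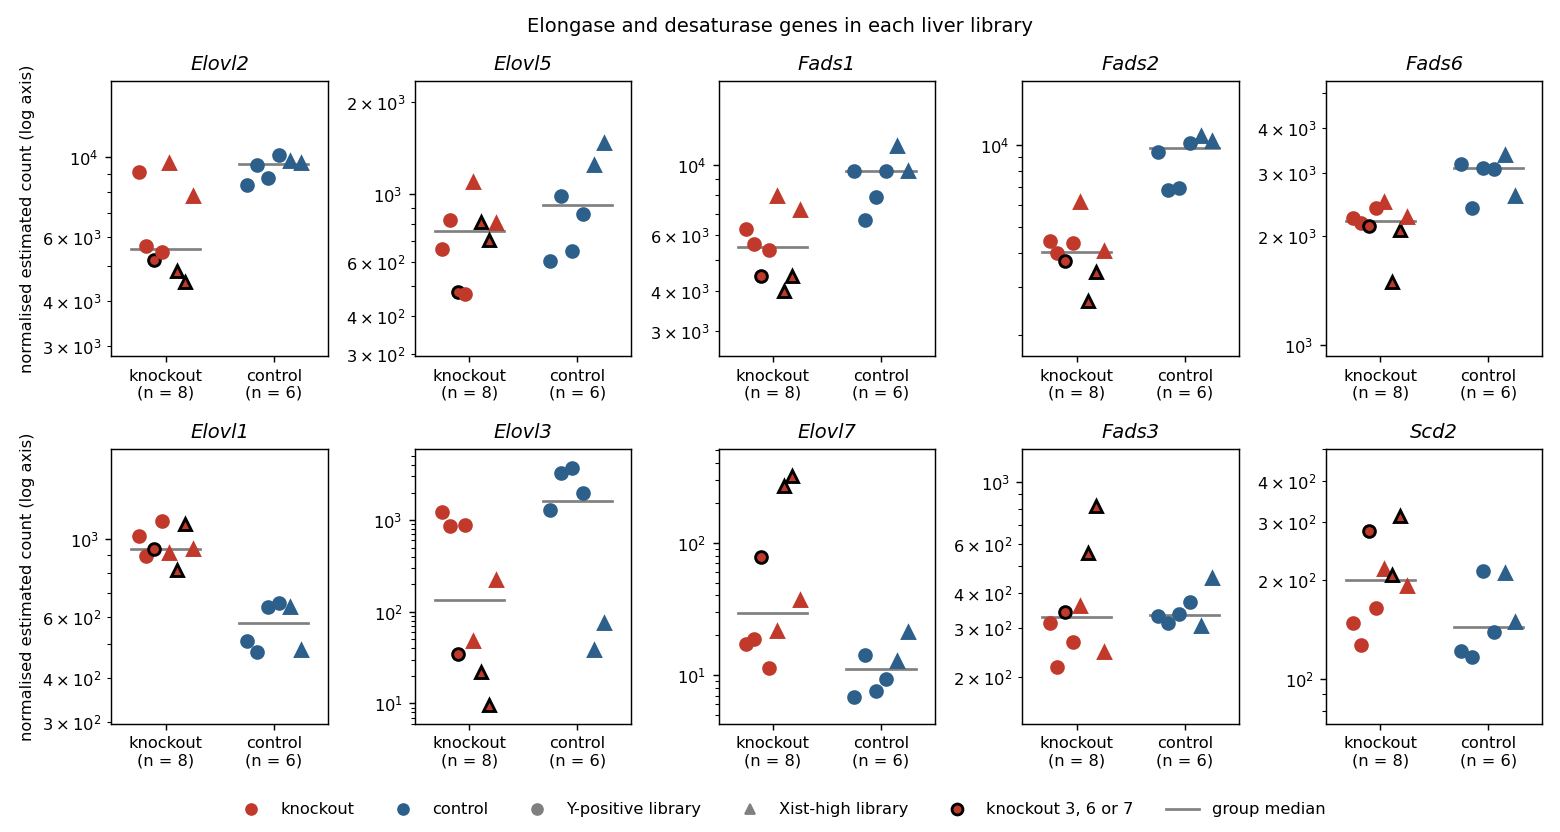
Value of each gene (normalised estimated count, log axis) in 8 knockout and 6 control libraries, with circles for Y-positive and triangles for Xist-high libraries, black outlines for knockouts 3, 6 and 7, and a grey line at each group's median. Fads2 and Elovl1 have no overlap between groups, Elovl3 is lower in Xist-high than in Y-positive libraries apart from Y-positive knockout 3, and Elovl7 is highest in knockouts 6 and 7, at 268 and 320.

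Fads2 encodes the desaturase that opens the polyunsaturated route from linoleic and alpha-linolenic acid. The gene (ENSMUSG00000024665) is protein-coding and occupies positions 10062765 to 10101746 of chromosome 19 (GRCm38, minus strand). Its values ran from 2671 to 6189 with a median of 4046 in knockouts, and from 6841 to 10757 with a median of 9763 in controls. Every knockout lay below every control. On the log2 scale the change was -1.15 (SE 0.17, 95% confidence interval -1.51 to -0.80, limma adjusted p = 0.000222), the largest fall among the members that passed. Without knockouts 3, 6 and 7 it was -0.97 (limma adjusted p = 0.00118).

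Fads1, the desaturase of a later step that yields arachidonic and eicosapentaenoic acid, had values of 3993 to 7943 (median 5500) in knockouts and 6698 to 11455 (median 9541) in controls. The ranges overlapped, but 0 of 8 knockouts lay above the control mean. Fads1 fell, with a log2 change of -0.70 (SE 0.17 and limma adjusted p = 0.00667), and -0.49 without knockouts 3, 6 and 7 (adjusted p = 0.0343). With equal sums it was -0.36 and did not pass (adjusted p = 0.0716), and neither did it after quantile normalization (-0.40, adjusted p = 0.0508). Fads1, Fads2 and Fads3 lie side by side on chromosome 19, Fads1 (ENSMUSG00000010663) at 10182888 to 10196877 on the plus strand and Fads3 (ENSMUSG00000024664) at 10041569 to 10060110 on the plus strand. The gaps are 2654 bases between Fads3 and Fads2 and 81141 bases between Fads2 and Fads1.

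The fatty acid desaturase Fads3, known to act on sphingoid bases, had values of 217 to 818 (median 327) in knockouts and 303 to 452 (median 334) in controls, with a log2 change of 0.03 (SE 0.25, 95% confidence interval -0.50 to 0.55, limma adjusted p = 0.952). Its sign depended on a few libraries: knockouts 6 and 7 had 555 and 818, above every control, while the other 6 knockouts had 217 to 360. Without knockouts 3, 6 and 7 the change was -0.33 and did not pass (adjusted p = 0.132). Mitochondrial protein-coding RNA made up 7.85% and 7.91% of the summed values in knockouts 6 and 7, more than in any other library (2.77% to 5.47%), and its part in the result was not tested.

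Elovl2 lengthens the longest polyunsaturated chains on the way to docosahexaenoic acid. The gene (ENSMUSG00000021364) lies at chromosome 13, 41182381 to 41220405, on the minus strand. Values were 4507 to 9622 (median 5586) in knockouts and 8407 to 10174 (median 9561) in controls. Controls were tightly grouped, with a coefficient of variation of 7.04%, against 30.9% in knockouts. Knockouts 1 and 5, at 9134 and 9622, lay within the control range, and the other 6 lay below it at 4507 to 7839. Elovl2 fell by 0.57 on the log2 scale (SE 0.17, adjusted p = 0.0248 in limma). The call was lost without knockouts 3, 6 and 7 (-0.35, adjusted p = 0.128), without control 4 (-0.55, adjusted p = 0.0541) and with equal sums (-0.24, adjusted p = 0.240). It was also lost in Y-positive libraries alone (-0.57, adjusted p = 0.0622), with no filter on low values (-0.57, adjusted p = 0.0566) and after quantile normalization (-0.25, adjusted p = 0.280).

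Elovl5 lengthens the products of Fads2 and was the member of this route that did not pass. Values were 472 to 1093 (median 756) in knockouts and 602 to 1469 (median 922) in controls, and the ranges overlapped. Its log2 change was -0.38 (SE 0.22, 95% confidence interval -0.86 to 0.09, limma adjusted p = 0.239). Among knockouts the Xist-high libraries had 706 to 1093 and the Y-positive ones 472 to 823, and among controls the Xist-high libraries had 1246 and 1469 and the Y-positive ones 602 to 984. The class difference did not pass among knockouts (adjusted p = 0.440) or controls (adjusted p = 0.170). With the class as a covariate Elovl5 was lower and passed (-0.49, adjusted p = 0.0400, in a fit that called 23.3% of all genes), but not when knockouts 3, 6 and 7 were also left out (-0.36, adjusted p = 0.161). With depth as a covariate it passed as well, at -0.61. The gene (ENSMUSG00000032349) lies at chromosome 9, 77917364 to 77984519, on the plus strand.

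Fads6 carries a fatty acid desaturase domain, and its substrate is not established. Values were 1490 to 2490 (median 2212) in knockouts and 2399 to 3373 (median 3086) in controls. The ranges overlapped at their edges, where knockout 5 (2490) lay above control 2 (2399), and 0 of 8 knockouts exceeded the control mean. Fads6 fell by 0.45 on the log2 scale (SE 0.12, adjusted p = 0.0114 in limma). With equal sums the change was -0.12 and did not pass (adjusted p = 0.407), nor did it after quantile normalization (-0.25, adjusted p = 0.112) or in Y-positive libraries alone (-0.38, adjusted p = 0.0533). The gene (ENSMUSG00000044788) lies at chromosome 11, 115279622 to 115297663, on the minus strand.

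Elovl1, the elongase of very long saturated and monounsaturated chains used in sphingolipids, was the member that rose. Values were 816 to 1125 (median 934) in knockouts and 475 to 655 (median 574) in controls, so every knockout lay above every control. Its log2 change was 0.78 (SE 0.11, 95% confidence interval 0.55 to 1.001, limma adjusted p = 0.000148). Knockouts 3, 6 and 7, at 932, 816 and 1099, lay among the other 5 at 891 to 1125, and the change without them was 0.79 (adjusted p = 0.000635). The gene (ENSMUSG00000006390) lies at chromosome 4, 118428093 to 118432953, on the plus strand, and overlaps Cdc20, a mitotic gene on the minus strand. Cdc20 had values of 8.002 to 92.3 in knockouts and 2.24 to 12.7 in controls. Of the 31-base words in Elovl1 transcripts 0.816% also occur in other genes, most often in Cdc20 when counted over transcripts. The part of Cdc20 in the Elovl1 values was not tested.

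The windows before the starts of Elovl1, which rose, of Elovl2, which fell, and of Elovl5, which did not pass, are shown for their different motif content. Each line gives the 250 bases before a RefSeq start on GRCm38.p6, from 5′ to 3′ on the gene's strand. Capitals mark GC boxes (GGGCGG), NF-Y boxes (CCAAT) and E-boxes (CACGTG) on either strand, and in Elovl1 a GC box and an NF-Y box share bases. They lie at chr4:118427843-118428092 (plus strand), chr13:41220404-41220653 (minus strand) and chr9:77917115-77917364 (plus strand).
Elovl1: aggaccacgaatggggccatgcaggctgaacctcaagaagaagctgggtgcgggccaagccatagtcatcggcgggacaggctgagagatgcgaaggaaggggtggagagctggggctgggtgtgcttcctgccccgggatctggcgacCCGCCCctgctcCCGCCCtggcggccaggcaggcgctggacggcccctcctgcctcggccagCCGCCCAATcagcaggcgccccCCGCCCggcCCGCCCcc
Elovl2: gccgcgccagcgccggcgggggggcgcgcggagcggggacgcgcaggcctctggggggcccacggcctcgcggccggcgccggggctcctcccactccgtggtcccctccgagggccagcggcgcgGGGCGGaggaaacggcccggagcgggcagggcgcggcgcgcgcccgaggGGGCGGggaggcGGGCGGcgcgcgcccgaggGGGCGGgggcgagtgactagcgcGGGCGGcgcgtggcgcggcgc
Elovl5: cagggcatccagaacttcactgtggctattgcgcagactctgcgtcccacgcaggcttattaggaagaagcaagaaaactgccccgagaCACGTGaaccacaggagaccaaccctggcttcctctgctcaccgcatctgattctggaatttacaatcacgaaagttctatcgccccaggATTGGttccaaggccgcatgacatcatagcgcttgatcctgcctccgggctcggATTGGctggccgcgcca
The Elovl1 and Elovl2 windows shown hold 5 GC boxes each and the Elovl5 window none. Both genes have another RefSeq start, not shown, whose window holds 2 GC boxes and no NF-Y box in Elovl1 (chr4:118429451-118429700) and 0 GC boxes in Elovl2 (chr13:41220163-41220412). Elovl5 holds 1 E-box and 2 NF-Y boxes. A GC box occurs in 32.7% of 32851 such windows of mouse genes, an NF-Y box in 33.8%, an E-box in 6.02% and the sterol element TCACNCCAC in 1.05%. The share of G and C bases was 72% in the Elovl1 window shown, 87.2% in that of Elovl2 and 55.6% in that of Elovl5. The median over all such windows was 52.4%, and motif counts were not adjusted for this share. The sterol element was found in 0 of the 9 windows of 7 members. In the Fads2 window 243 of 250 bases lie in GENCODE exons, so sequence upstream of that gene was hardly searched. The Fads6 window has 101 such bases and the Elovl2 window not shown has 51. At a background of 1.05%, finding 0 does not show that these genes lack the element. Promoters of Fads1, Scd2 and Elovl3 were not used here. A match is a string of letters and does not show binding.

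Elovl3 is the elongase of this family known for higher expression in male than in female mouse liver. The gene (ENSMUSG00000038754) lies at chromosome 19, 46131897 to 46135694, on the plus strand. In Y-positive knockouts 1 to 4 its values were 1232, 867, 34.4 and 890, and in Y-positive controls 1 to 4 they were 1277, 3306, 3737 and 1956. In Xist-high knockouts 5 to 8 they were 48.0, 22.0, 9.59 and 223, and in Xist-high controls 5 and 6 they were 38.6 and 75.1. Within Y-positive libraries every knockout thus lay below every control, narrowly so for knockout 1 (1232) against control 1 (1277). Within Xist-high libraries the groups overlapped. The share of all genes that separate within Y-positive libraries is not given here, so this separation cannot be set against a background. Overlap in 1 class and not in the other does not show that the classes differ.

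Over all 14 libraries the log2 change of Elovl3 was -2.35 with an SE of 1.31 and did not pass (95% confidence interval -5.15 to 0.44, limma adjusted p = 0.220). It was -2.46 in Y-positive libraries alone (SE 0.99, adjusted p = 0.118) and -0.44 in Xist-high libraries alone (SE 1.05, adjusted p = 0.868). Knockout 3, at 34.4, had the lowest Y-positive value, within the range of the Xist-high libraries. Without it the change within Y-positive libraries was -1.26 with an SE of 0.34 and passed (adjusted p = 0.0404), a setting chosen after seeing the data. Without knockouts 3, 6 and 7 the change over both classes was -0.75 (adjusted p = 0.738). The class was also compared, Xist-high minus Y-positive: Elovl3 differed by -5.43 among controls (SE 0.44, limma adjusted p = 0.000635, 2 against 4 libraries), where 0.917% of genes were called. Among knockouts that difference was -3.41 (SE 1.22, adjusted p = 0.367).

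**Figure D2:**
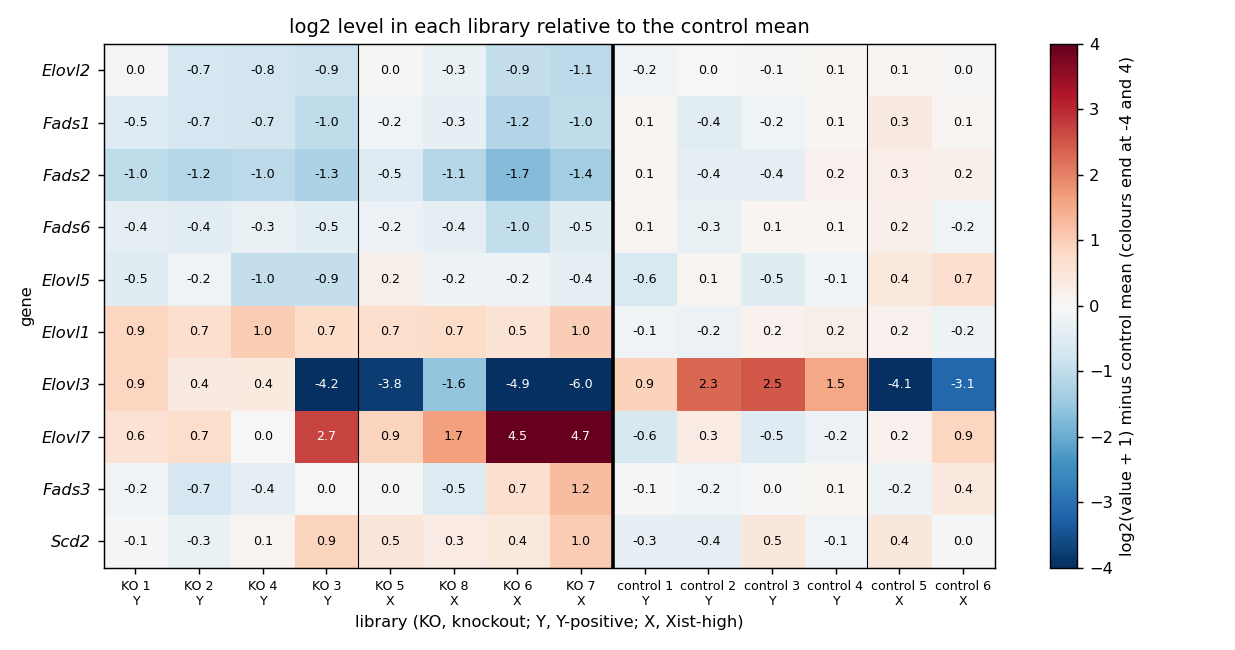
Heat map of log2(value + 1) minus the control mean for the 10 genes (rows) in each library (columns, knockouts left of controls), with Y and X for the Y-positive and Xist-high class. Elovl1 and Elovl7 are above 0 and Fads1, Fads2 and Fads6 below 0 in all 8 knockouts, and the row of Elovl3 is lower in Xist-high than in Y-positive libraries apart from Y-positive knockout 3.

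Elovl7, an elongase of saturated chains, had the lowest mean level per length of the 10 genes in both groups. Its values in knockouts 1 to 8 were 17.3, 18.9, 78.2, 11.4, 21.5, 268, 320 and 37.2, and in controls 1 to 6 they were 6.86, 14.3, 7.59, 9.39, 12.7 and 21.1. Knockouts 3, 5, 6, 7 and 8 lay above every control, knockout 5 narrowly, and knockouts 1, 2 and 4 lay within the control range. In log2 terms the change was 1.97 (SE 0.69, 95% confidence interval 0.51 to 3.43) with a limma adjusted p of 0.0501, which missed the threshold. Without knockouts 3, 6 and 7 it was 0.77 (adjusted p = 0.132), and with equal sums it was 2.29 and passed (adjusted p = 0.0216). The call also turned with a single library: Elovl7 passed without knockout 1 (adjusted p = 0.0385), 2 (0.0423), 4 (0.0256) or 5 (0.0418). Control values stood on 6.55 to 21.01 estimated reads. The gene (ENSMUSG00000021696) lies at chromosome 13, 108214404 to 108285683, on the plus strand.

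Markers of 2 other cell types were highest in knockouts 3, 6 and 7. The summed value of 5 markers of macrophages other than Kupffer cells was 922, 1230 and 1209 in knockouts 3, 6 and 7. It was 236 to 415 in the 5 remaining knockouts, against 221 to 278 in controls. The summed value of 6 cholangiocyte markers was 3522, 3146 and 4000.0 in these libraries. It was 1693 to 2123 in the remaining knockouts, against 1046 to 2004 in controls. Of these lists 2 of 5 and 3 of 6 rose, while 3 of 6 endothelial and 1 of 7 stellate cell markers fell. Over all genes tested 11.5% were called higher and 11% lower. Of Kupffer cell markers 0 of 6 were called, and of lymphocyte markers 0 of 4. The endothelial sum was 2778 to 3231 in knockouts 3, 6 and 7 and 2480 to 4128 in the remaining knockouts. Stellate cell, Kupffer cell and lymphocyte sums also overlapped between these libraries. The cyclin-dependent kinase inhibitor Cdkn1a had 481, 520 and 550 in the same knockouts, against 49.9 to 162 in the remaining knockouts and 18.3 to 41.1 in controls. Their part in the values of Elovl7 and Fads3 was not tested.

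Scd2, a stearoyl-CoA desaturase known for its role in the brain and in newborn mice, lies beside Scd1, Scd3 and Scd4 on chromosome 19. The gene (ENSMUSG00000025203) spans 44293674 to 44306864 on the plus strand. Values were 127 to 313 (median 199.5) in knockouts and 117 to 212 (median 144) in controls. The ranges overlapped, and 6 of 8 knockouts lay above the control mean. Its log2 change was 0.36 (SE 0.21, 95% confidence interval -0.08 to 0.81, limma adjusted p = 0.232), and 0.12 without knockouts 3, 6 and 7 (adjusted p = 0.727). With equal sums it was 0.70 and passed (adjusted p = 0.0298). Of its 31-base words 6.81% also occur in other genes, most often in Scd1 when counted over transcripts. Some reads of these paralogs could thus be split between them. The highest such share in the other members was 3.99%, in Fads6. Scd1 had far higher mean values per kilobase of longest coding transcript, 2933 in knockouts and 4209 in controls, against 37.8 and 29.0 for Scd2. The part of Scd1 reads in the Scd2 values was not tested. Scd2 is also a gene of fat tissue, and the summed value of 4 adipocyte markers was 14.6 to 198 in knockouts and 36.2 to 653 in controls, with Adipoq at 0 in 3 libraries. The part of fat tissue was not tested.

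**Figure D3:**
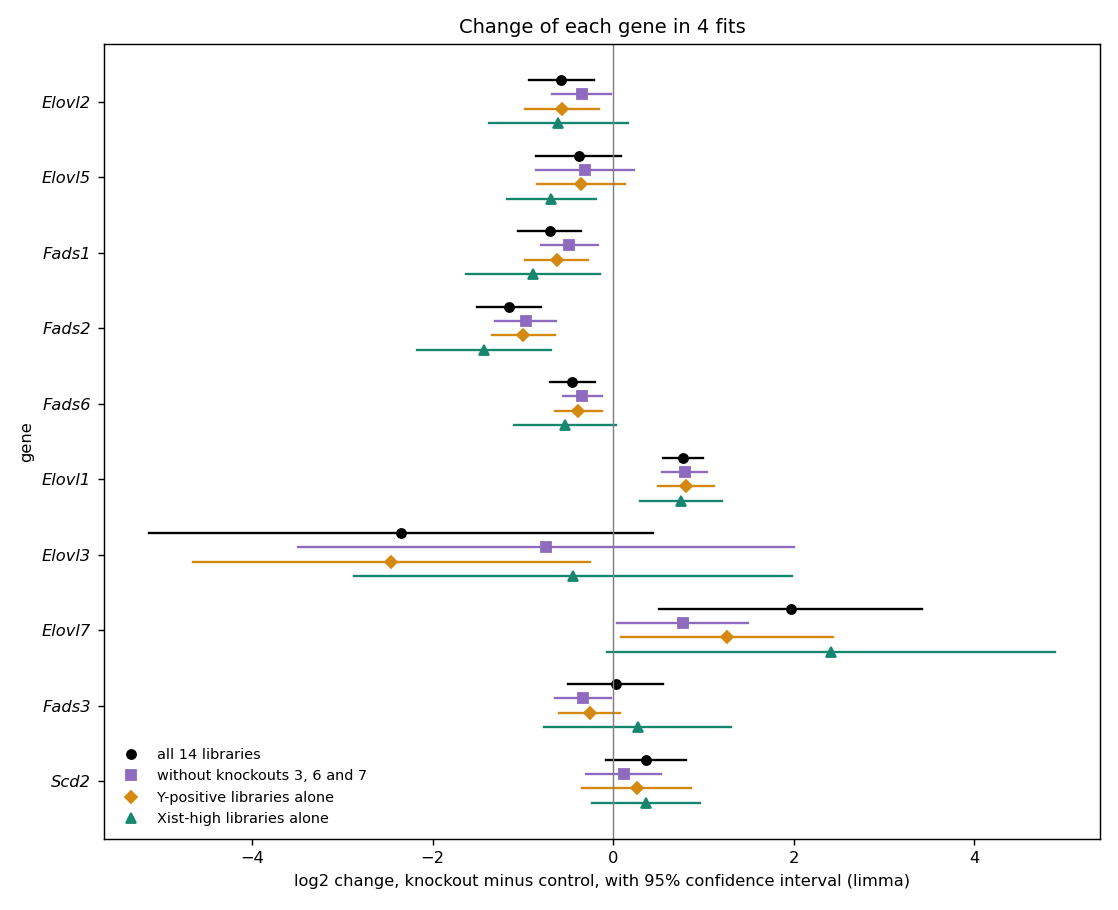
Log2 change of each gene, knockout minus control, with its 95% confidence interval in 4 limma fits: all 14 libraries, without knockouts 3, 6 and 7, Y-positive libraries alone and Xist-high libraries alone. Elovl1 lies between 0.75 and 0.81 in all 4, whereas Elovl3 runs from -2.46 to -0.44 and Elovl7 from 0.77 to 2.42.

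The difference between the classes was tested as an interaction of genotype and class. It was called in limma for 0 of the 10 genes, against 13 of 23554 genes (0.0552%). At an unadjusted p under 0.05 there were 0 of the 10 genes, against 1395 of 23554. For Elovl3 the interaction was 2.02 (SE 1.65, 95% confidence interval -1.52 to 5.56, adjusted p = 0.847), an interval too wide to tell classes apart with 2 Xist-high controls. For Elovl1 it was -0.05 (95% confidence interval -0.55 to 0.44, adjusted p = 0.971), and for Fads2 -0.44 (95% confidence interval -1.18 to 0.29, adjusted p = 0.846). In Xist-high libraries alone 0 members passed in limma, 4 had an unadjusted p under 0.05, and 0.93% of all genes were called. There Fads2 was -1.44 (adjusted p = 0.0949) and Elovl1 was 0.75 (adjusted p = 0.130). In Y-positive libraries alone, where 15.7% of all genes were called, Elovl1 (0.81, adjusted p = 0.00695), Fads2 (-0.99, adjusted p = 0.00500) and Fads1 (-0.63, adjusted p = 0.0272) passed.

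Levels were set side by side per kilobase of each gene's longest coding transcript in GENCODE M21. In knockouts the order of mean values per kilobase was Elovl2 1703 ± 525.97, Fads1 1638 ± 404, Fads2 1304 ± 322, Elovl1 533 ± 58.7, Fads6 436 ± 60.9, Elovl5 263 ± 73.0, Elovl3 221 ± 264, Fads3 106 ± 54.8, Scd2 37.8 ± 11.8 and Elovl7 24.1 ± 31.01 (SD, n = 8). In controls it was Fads2 2878 ± 551, Fads1 2635 ± 473, Elovl2 2443 ± 172, Elovl3 921 ± 836, Fads6 596 ± 75.4, Elovl5 348 ± 122, Elovl1 313 ± 47.1, Fads3 95.1 ± 14.9, Scd2 29.0 ± 7.80 and Elovl7 2.99 ± 1.33 (SD, n = 6). In both groups the leading 3 differed from one another by less than the largest SD among them. The same held in knockouts for Elovl3 with each of Fads6, Elovl5, Fads3, Scd2 and Elovl7, and for Scd2 and Elovl7. In controls it held for Elovl3 with each of Fads6, Elovl5, Elovl1 and Fads3, and for Elovl5 and Elovl1. The mean of Elovl1 was above that of Fads6 in knockouts and below it in controls.

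Ratios within a library do not depend on the scaling. Per length, the ratio of Elovl1 to Fads2 was 0.256 to 0.562 (median 0.417) in knockouts and 0.0814 to 0.159 (median 0.108) in controls, with no overlap. That follows from the values above, since every knockout lay above every control for Elovl1 and below every control for Fads2. The ratio of Fads2 to Fads1 was 0.623 to 0.918 (median 0.811) in knockouts and 0.968 to 1.19 (median 1.10) in controls, again with no overlap. Fads2 was the lower of the pair in every knockout and in control 3 (0.968). Which of the 2 is lower also depends on the transcript lengths taken. Elovl2 to Fads2 was 1.03 to 1.69 (median 1.22) in knockouts and 0.735 to 1.14 (median 0.794) in controls, and these ranges overlapped. Elovl1 to Elovl5 was 1.28 to 3.66 (median 2.08) in knockouts and 0.505 to 1.502 (median 0.978) in controls, and these also overlapped. The ratios were picked out after the values were seen, show unequal change and carry no test.

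The members with the largest absolute changes were Elovl3, Elovl7 and Fads2, and the genes most like each were found from deviations from the group means over 14 libraries. The protein-coding genes nearest to Elovl3 were Mup20 (Pearson r 0.97), Hsd3b5 (0.97) and Serpina3a (0.96), nearest to Elovl7 were Dusp16 (0.97), Enc1 (0.96) and Igfbp1 (0.96), and nearest to Fads2 were Mmd2 (0.97), Cradd (0.91) and Saraf (0.90). These are descriptions over libraries that share class and depth. Mmd2 fell with a log2 change of -1.51 and Saraf with -0.35 (limma adjusted p = 0.00400 and 0.0450), whereas Cradd rose by 0.68 (adjusted p = 0.000794). For Hsd3b5, values ran from 1.86 to 3534 in knockouts and from 17.3 to 8200 in controls. Enc1 rose, with 248 to 1791 in knockouts and 69.1 to 133 in controls (log2 change 2.46, limma adjusted p = 0.000725).

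GGACT, a frequent sequence context of m6A, was counted in the longest coding transcript of each gene. Per kilobase Fads3 had 2.98 (11 copies), Fads2 2.86 (9), Elovl1 2.76 (5) and Elovl3 2.13 (4), at percentiles of 98.0, 97.5, 97.1 and 91.2 among 16140 tested coding genes, whose median was 1.03. Elovl2 had 0.781 (3) and Fads1 0.867 (3). High density was thus found in a gene that rose, in one that fell and in 2 that did not pass. The count is of letters only and does not show that a site is methylated.

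Genes around the members were taken from 8 lists, 70 genes of which 67 were tested: 19 fell, 8 rose and 40 did not pass, against 11% lower and 11.5% higher over all genes. The transcriptional regulators of lipid synthesis had 6 lower, 1 higher and 7 that did not pass, out of 14. Srebf1, which encodes SREBP-1c, had the largest fall there (-1.89, SE 0.32, limma adjusted p = 0.000730), and Mbtps1, the protease that activates SREBPs, rose by 0.29 (adjusted p = 0.0293). Mbtps1 did not pass without knockouts 3, 6 and 7 (0.25, adjusted p = 0.103), nor in the authors' deposited table (q = 0.0899). Of 9 genes of peroxisomal chain shortening, the step that finishes docosahexaenoic acid, 6 fell and 3 did not pass, with a median of -0.63. Abcd3, a peroxisomal transporter of acyl-CoA, fell by 0.85 (adjusted p = 0.000303).

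The enzymes that work beside elongases and desaturases were mixed. Of 6 tested partners of the elongation cycle 2 fell, 1 rose and 3 did not pass. Tecr, the reductase of the last step, fell by 0.78 (limma adjusted p = 0.000538), and Hacd2, a dehydratase, rose by 0.47 (adjusted p = 0.0159). Of 6 electron donors 2 fell and 1 rose. Cyb5a, the cytochrome b5 that feeds desaturases, fell by 0.40 (adjusted p = 0.0317), but it turned to 0.23 after quantile normalization and was -0.06 with equal sums, without a call in either. Cyb5r2 rose by 0.81 (adjusted p = 0.0154). Without knockouts 3, 6 and 7 neither Cyb5a (-0.30, adjusted p = 0.104) nor Cyb5r2 (0.73, adjusted p = 0.0770) passed. Of 8 acyl-CoA synthetases 2 fell and 6 did not pass, led by Slc27a2 (-1.42, adjusted p = 3.53e-05). Elovl6 was the 1 gene called of 5 other elongases and desaturases (-0.79, adjusted p = 0.0149), and it did not pass with equal sums (-0.46, adjusted p = 0.121).

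In 2 further lists, phospholipid acyltransferases and ceramide synthesis, the few genes called were higher in knockouts. Over all genes tested 11.5% were called higher and 11% lower, and no test of a list was run. Of 10 phospholipid acyltransferases 2 rose and 8 did not pass, with a median of 0.30. Agpat3 rose by 0.53 (limma adjusted p = 0.000502). Of 9 tested genes of ceramide synthesis 3 rose and 6 did not pass, with a median of 0.18. Degs2 led at 1.33 (adjusted p = 0.0243) and was not tested in the authors' deposited table. It did not pass when knockouts 3, 6 and 7 were left out (1.09, adjusted p = 0.130). The 1 gene of that list still called without them was Sptlc2 (0.67, adjusted p = 0.00111). In that setting 16 genes of all lists fell and 5 rose, and 19 of the 27 calls were kept. The median of the ceramide list was then -0.03. The ceramide synthases Cers1, Cers2, Cers4, Cers5 and Cers6 did not pass in the authors' deposited table (q of 0.242 to 0.806). Of the called genes named from the lists, Mbtps1, Hacd2, Cyb5a, Cyb5r2, Elovl6 and Degs2 did not pass in Y-positive libraries alone. With equal sums 18 of the 67 genes rose (26.9%) and 10 fell (14.9%), beside 33.3% higher and 3.68% lower over all genes.

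**Figure D4:**
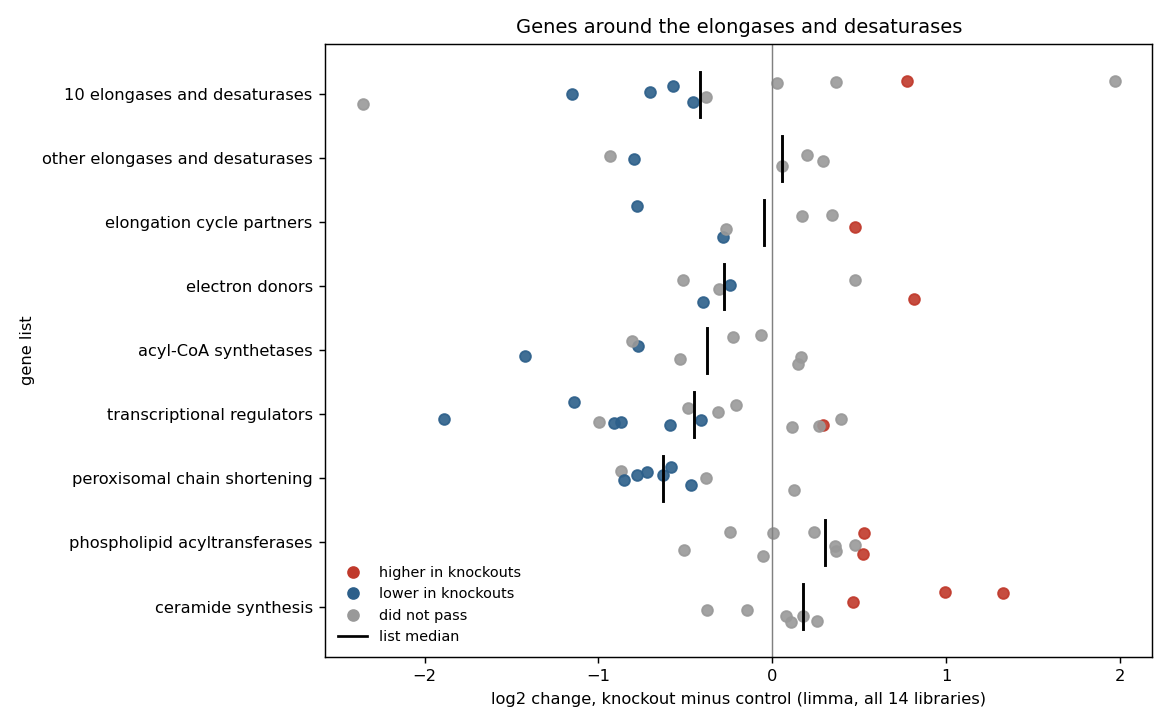
Log2 change, knockout minus control, of each tested gene (points) in the 10 elongases and desaturases and in 8 lists of neighbouring steps, with list medians as black bars and calls in colour. Medians run from -0.63 for peroxisomal chain shortening to 0.30 for phospholipid acyltransferases.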

How the data were processed

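The submitters' processing notes name kallisto, sleuth and the mm10 build; versions and the strand setting are not given in the sources used here. Per the labels' protocols, libraries came from a stranded total RNA kit. The signal values the authors deposited are estimated counts per gene divided by 1 factor per library, as read from the values: 27.9% to 29.8% of low values were whole reads (within 0.02). Depth was a library's sum over the worth of 1 read, and no interval for counting error was computed. The authors also deposited p-values and q-values, and changes as a natural log (control minus knockout), turned to log2 here.

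The table's 75859 lines held 54446 genes. Genes that reached a value of 10 in 6 or more libraries (23554) were tested with limma 3.58.1 (R 4.3.3, trended prior) on log2(value + 1), knockout minus control, with Benjamini-Hochberg adjustment over all genes tested and calls at 0.05. Libraries were classed by Xist and 4 Y-linked genes. The steps were tested on simulated data. Alternatives changed the pseudocount, filter, threshold, scaling, covariates and libraries. Coordinates, transcripts and GGACT counts are from GENCODE M21 (GRCm38), and promoters from RefSeq.

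The 10 genes and all lists were chosen with earlier results of these data known. Named from each list was the called gene with the largest absolute change in each direction. Sptlc2 and the ceramide synthases were named beyond that rule. Likeness was sought for the 3 members with the largest absolute change.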

Additional observations from a re-analysis of the deposited data

Results flagged for a closer look

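Fads6 had 1 library apart from its group: knockout 6 had a value of 1490 (1489.95), below the other 7 knockouts at 2085 to 2490, and its gap to the nearest of them was 0.595 of the group's range. Of 20 groups checked (10 genes in knockouts and in controls) this was the 1 found, and chance gives about 1 in 20.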

How the results depend on the processing

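Of the 10 genes, 1 rose and 4 fell in the fit reported. The number that rose was 2 with a pseudocount of 0.1, 0 in Xist-high libraries alone and 3 with equal sums, and 1 to 2 with 1 library left out at a time. The number that fell was 2 at a threshold of 0.01, 2 in Y-positive libraries alone, 0 in Xist-high libraries alone, 1 with equal sums and 1 with quantile normalization, and 3 to 4 with 1 library left out. Of the 67 neighbouring genes, 8 rose and 19 fell. At a threshold of 0.01 these counts were 2 and 11, with equal sums 18 and 10, in Xist-high libraries alone 0 and 0, and with 1 library left out 6 to 10 and 14 to 21. The number that rose was 4 in Y-positive libraries alone and 5 without knockouts 3, 6 and 7, also with the class as a covariate. The number that fell was 11 with quantile normalization. The cause of these differences was not tested. Xist-high libraries alone hold 2 controls and had lower depth, and the part of either was not tested. Over all 23554 genes tested, 2364 were called higher and 2398 lower after quantile normalization, against 2697 and 2583 in the fit reported. Shares over all genes are not given here for the threshold of 0.01, the pseudocount of 0.1 or 1 library left out. Counts in those settings thus cannot be set against a background. The interaction was called for 0 members in every alternative run. Fads3 changed sign: -0.33 without knockouts 3, 6 and 7, -0.26 in Y-positive libraries, -0.36 there without knockout 3, -0.048 with the class as a covariate, -0.34 with both, -0.15 with depth as a covariate, and -0.14 to 0.13 with 1 library left out.

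With the replicate number as a block (replicate block), Fads3 was -0.084, and Elovl2 lost its call at -0.55 (adjusted p = 0.0607 in limma); 1 member rose and 3 fell. The numbers were not taken as pairs, since 1 of 6 correlations of same-numbered deviations was under 0.1: it was 0.07 for replicate 3 and 0.14 to 0.23 for the others, and 3 of 6 pairs correlated best with their own number. Depth limits low values most: the lowest rested on 6 estimated reads in Elovl3 knockouts and 6.55 in Elovl7 controls.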
